A study of Mus musculus with 13 samples.

Results

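The genes described here are 5 nuclear steroid receptor genes (Esr1, Esr2, Pgr, Nr3c1 and Nr3c2), the 3 genes of the steroid 5-alpha reductase family (Srd5a1, Srd5a2 and Srd5a3) and Greb1, a partner and target of the estrogen receptor. These 9 genes were taken by symbol from the 41388 genes counted in Ret-positive cells of mouse dorsal root ganglia (DRG). They were chosen with their normalised read counts (CPM, counts scaled to the library total) at the spinal levels L6 and S1 (L6S1) set against L3, L4 and L5 (L345) already known. That level difference is therefore given as values, with no test on the 9 genes. Tests are reported for the comparison of the sexes and for the interaction of level and sex, which the choice did not use. All 9 genes were among the 15406 that passed the filter on low counts.

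Steroid hormones cross the cell membrane and bind receptors that act as transcription factors. Estrogens bind the products of Esr1 and Esr2, progesterone that of Pgr, glucocorticoids that of Nr3c1, and aldosterone and glucocorticoids that of Nr3c2. The products of Srd5a1 and Srd5a2 reduce testosterone to dihydrotestosterone, the stronger androgen, and reduce progesterone on the path to neurosteroids. Sensory neurons of the L6 and S1 ganglia supply pelvic organs such as bladder, colon and genital tract in addition to skin, and estrogen receptors have long been known in DRG neurons.

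Sorted cells of 4 groups were sequenced, all from C57BL/6 mice of 3 months that carried Ret-EGFP, and no group lacked the reporter. They were 4 libraries of male L6S1 ganglia (A, D, E and F), 3 of male L345 (A, B and C), 3 of female L6S1 (A, B and C) and 3 of female L345 (A, B and C). The sample labels write the genotype as Tg(Ret-EGFP)SJ, the form of a transgene, whereas the series text describes EGFP placed in the Ret locus of heterozygous animals. EGFP thus marks cells in which Ret, a receptor for neurotrophic factors of the GDNF family, is or was active, and a mouse with EGFP in that locus has 1 intact Ret copy. Every library is RNA of a pool of 2 to 9 mice, 61 pool members in all, and the labels do not say whether a mouse gave ganglia to both levels. The p-values below therefore measure the spread between pools. In such bulk RNA, fewer cells of a type and less RNA per cell cannot be told apart.

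The libraries held 13030096 to 27011995 counts each, and 3 counts correspond to 0.111 to 0.230 CPM. Ret itself stood at 154 and 87.2 CPM in male L6S1 D and E and at 181 to 221 CPM in the other 11 libraries. On the first principal component of log2 CPM, which held 40.8% of the variance, D and E lay at 90.8 and 138.5, against -34.4 to 39.1 for the other 11. All 15 sensory neuron markers were detected, but satellite glia and Schwann cell markers, 12 of 12 detected, also summed to 4518 and 9711 CPM in D and E and to 3207 to 4681 CPM in the other 11. Markers of sympathetic neurons summed to less than 1 CPM in every library. Results on male L6S1 are given with and without D and E where these change them. The processing notes name STAR, Salmon and mm10 for all 6 female libraries and for 0 of the 7 male ones, so sex and processing cannot be told apart. A fixed difference of this kind cancels in the level effect within a sex and in the interaction of level and sex.

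Promoter sequences of RefSeq on GRCm38.p6 were matched by symbol for 8 of the 9 members, in 10 windows, and the 250 bases before each start were searched on both strands. The palindromic estrogen response element (GGTCA, 3 bases, TGACC) and the element (AGAACA, 3 bases, TGTTCT) bound by glucocorticoid and progesterone receptors were in 0 of the 10 windows and in 0.0639% and 0.00913% of 32851 promoters. A single arm of the estrogen response element, AGGTCA, was in 1 window, that of Greb1, and in 14% of all promoters. The single arm TGTTCT was in 0 windows and in 16.1% of all promoters. A GC box, GGGCGG, was in the windows of Nr3c2, Pgr, Srd5a1, Srd5a2 and Srd5a3 and in 32.7% of all promoters, and the TATA box letters TATAAA in that of Pgr and in 12.4%. The upstream sequences of Pgr, Srd5a2 and Greb1 are shown because these genes carry the level difference in both sexes (Pgr and Srd5a2) or the single response element arm (Greb1). Of the Esr1 windows, 1 had 0 bases outside annotated exons and so leaves no sequence to show, although it counts among the 10. The other held none of these motifs, and neither is shown. The printed sequences are written 5′ to 3′ in lower case, with the motifs in capitals (TTTATA is TATAAA and TGACCT is AGGTCA on the other strand), and stop short of any annotated exon. They lie at chr9:8899583.0-8899832.0, plus strand, at chr17:74047917.0-74048110.0, minus strand, and at chr12:16800887.0-16801136.0, minus strand.
Pgr: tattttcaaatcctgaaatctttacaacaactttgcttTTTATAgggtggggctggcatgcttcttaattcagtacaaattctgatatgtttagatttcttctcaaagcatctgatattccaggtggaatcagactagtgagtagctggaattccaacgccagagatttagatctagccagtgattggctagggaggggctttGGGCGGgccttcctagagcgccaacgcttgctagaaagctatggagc
Srd5a2: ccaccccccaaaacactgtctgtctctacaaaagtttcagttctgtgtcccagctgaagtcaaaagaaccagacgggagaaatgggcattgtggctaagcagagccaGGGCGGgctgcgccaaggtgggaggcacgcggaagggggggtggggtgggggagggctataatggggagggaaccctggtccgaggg
Greb1: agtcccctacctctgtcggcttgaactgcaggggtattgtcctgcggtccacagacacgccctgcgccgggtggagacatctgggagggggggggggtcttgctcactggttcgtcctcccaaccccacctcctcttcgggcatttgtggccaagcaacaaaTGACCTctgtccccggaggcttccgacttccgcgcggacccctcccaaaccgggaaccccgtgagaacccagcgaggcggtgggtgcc
A match of letters is a description of these windows and not a binding site.

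Per kilobase of gene model, the order of the 9 genes by median deposited RPKM over the 13 libraries was Srd5a3 at 9.71, Nr3c1 at 4.97, Srd5a1 at 3.40, Srd5a2 and Esr1 at 1.29 each, Nr3c2 at 0.812, Esr2 at 0.319, Greb1 at 0.282 and Pgr at 0.147. Neighbours in this order often changed places. Srd5a2 exceeded Esr1 in 5 of 13 libraries, Esr2 exceeded Greb1 in 9 of 13, and Srd5a3 exceeded Nr3c1 in 10 of 13. The pair Nr3c2 and Esr2 kept its order in 13 of 13. Srd5a2 ran from 0 to 11.8 RPKM, Srd5a3 from 3.42 to 15.0 RPKM and Esr1 from 0.562 to 5.56 RPKM, while Srd5a1 stayed between 2.72 and 4.30 RPKM. The medians of Srd5a3, Nr3c1 and Srd5a1 thus lay above those of Esr1, Esr2 and Pgr.

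**Figure D1:**
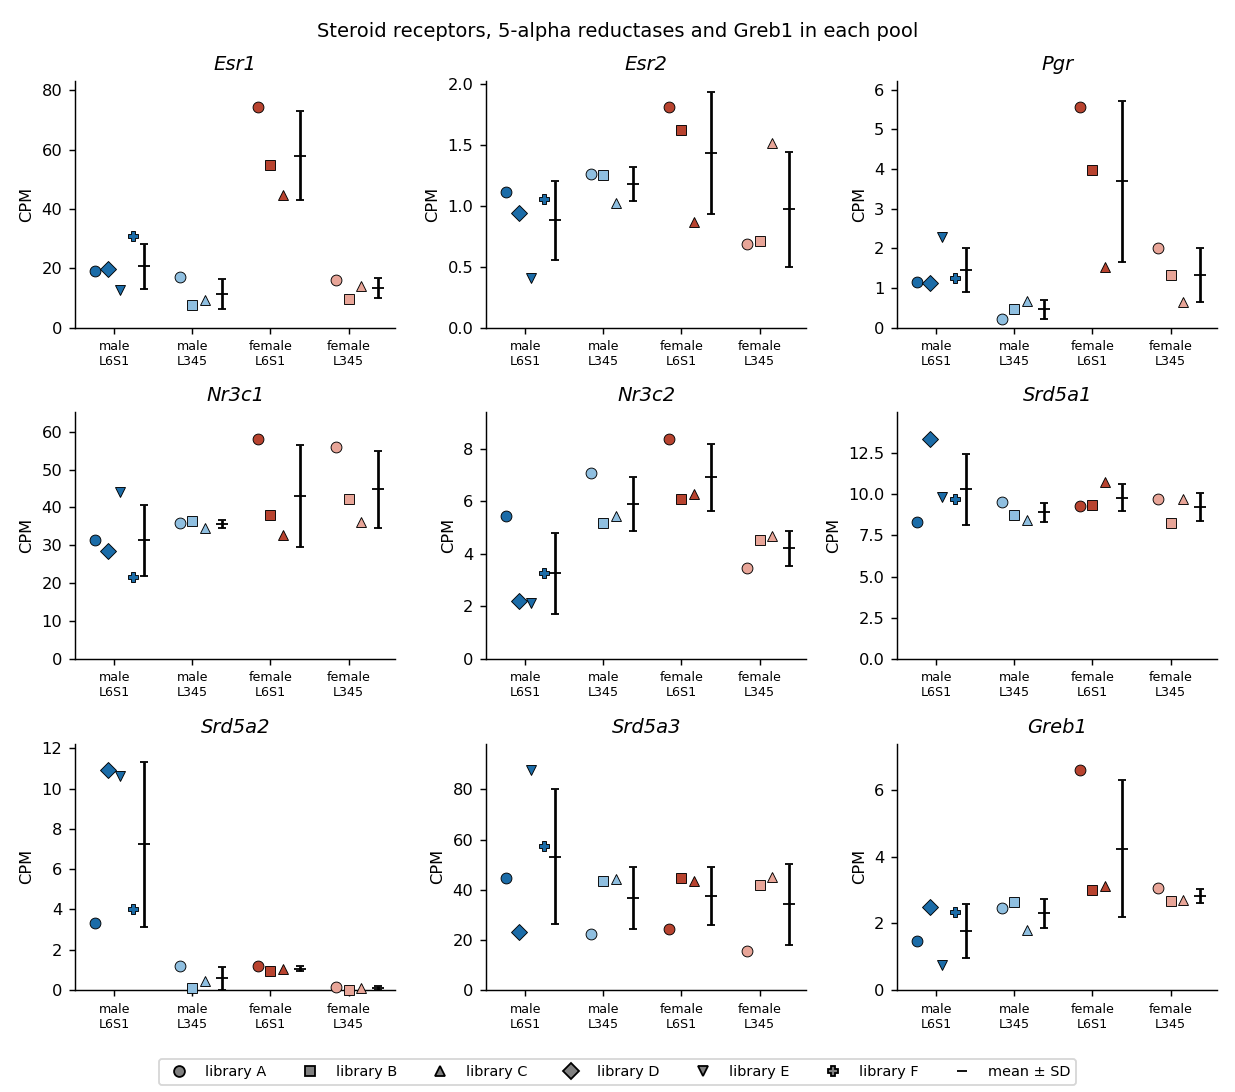
Normalised CPM of the 9 genes in each of the 13 libraries (y axis, CPM, from 0), by group (x axis). Points are libraries, marked by letter, and bars are the mean ± SD of a group. Esr1 stands at 44.7 to 74.2 CPM in female L6S1 and at 30.9 CPM or less elsewhere, and Srd5a2 at 3.34 to 10.9 CPM in male L6S1 and at 1.19 CPM or less elsewhere.

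Esr1 (ENSMUSG00000019768, GRCm38 chromosome 10, 4611593 to 5005614) encodes estrogen receptor alpha, through which estrogen acts in the reproductive tract and in much of the nervous system. It had 18.9, 19.8, 12.8 and 30.9 CPM in male L6S1 A, D, E and F, against 17.0, 7.54 and 9.29 CPM in male L345 A, B and C. Female L6S1 A, B and C had 74.2, 54.9 and 44.7 CPM, against 16.1, 9.78 and 14.2 CPM in female L345. In females the levels did not overlap and every L6S1 pool lay far above every L345 pool, whereas male L6S1 E fell below male L345 A. The level effect on the log2 scale was 0.88 in males, or 1.83-fold, and 2.12 in females, or 4.34-fold. Without male L6S1 D and E the male value was 1.14. Over both sexes the effect was 1.497, or 1.132 with the letter within a sex as a block, where the male part rests on the A pair alone.

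The sexes were close in Esr1 at L345 and apart at L6S1. At L345 the male level was 11.3 ± 5.05 CPM and the female level 13.3 ± 3.23 CPM (SD, n = 3 each), and the log2 fold change of -0.25 had an SE of 0.37 (edgeR adjusted p = 1). At L6S1 it was 20.6 ± 7.52 CPM in males (n = 4) and 57.9 ± 15.0 CPM in females (n = 3), with no overlap. That log2 fold change was -1.49 (SE 0.34), lower in 4 of 4 male pools than the female mean, and edgeR's quasi-likelihood test with Benjamini-Hochberg adjustment gave an adjusted p = 0.130. Over 19 alternatives the value lay between -2.04 and -1.23 and the adjusted p between 0.00381 and 0.608, under 0.05 in 4 of them. Averaged over both levels it was -0.87 (SE 0.25, adjusted p = 0.665), and with the library letter as a block -1.17 (adjusted p = 0.00719). The difference of the level effect, males minus females, was -1.24 (SE 0.50, edgeR adjusted p = 0.409) and passed under 0 of 20 alternatives. Without D and E that difference was -0.97. Fibroblast markers, 7 of 7 detected and led by Dcn, summed to 145 to 599 CPM in male L6S1, 82.2 to 156 CPM in male L345, 197 to 442 CPM in female L6S1 and 113 to 236 CPM in female L345. Most of each sum was Dcn, at up to 570.5 CPM in male L6S1 and 426.7 CPM in female L6S1. Lum, Pdgfra and Mgp also had their highest value in an L6S1 library. Col1a1, Col1a2 and Col3a1 had theirs at L345, at 2.60, 11.99 and 4.835 CPM. Male L6S1 E had the highest sum and the lowest Esr1 of its group. The part of these markers in the Esr1 values was not tested.

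Esr2 (ENSMUSG00000021055, chromosome 12, 76120419 to 76177259), which encodes estrogen receptor beta, was scarce, with 7 to 41 counts per library. It had 1.11, 0.94, 0.41 and 1.06 CPM in male L6S1 A, D, E and F, and 1.26, 1.26 and 1.02 CPM in male L345. Female L6S1 had 1.81, 1.62 and 0.863 CPM and female L345 0.69, 0.71 and 1.52 CPM. All 4 groups overlapped with at least 1 other, and the 2 levels overlapped in both sexes. The level effect on the log2 scale was -0.40 in males, -0.13 without D and E, and 0.54 in females. Its difference between the sexes was -0.95 (SE 0.65, edgeR adjusted p = 0.480).

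Pgr (ENSMUSG00000031870, chromosome 9, 8899833 to 8968611) encodes the progesterone receptor and is a textbook estrogen-induced gene in uterus and hypothalamus. Its counts were low in every group, between 3 and 126 per library. It had 1.16, 1.13, 2.28 and 1.24 CPM in male L6S1 A, D, E and F, against 0.223, 0.47 and 0.68 CPM in male L345 A, B and C. In females it had 5.56, 3.97 and 1.53 CPM at L6S1 and 2.02, 1.32 and 0.66 CPM at L345. Every male L6S1 pool exceeded every male L345 pool, while female L6S1 C lay below female L345 A. The level effect was of like size in both sexes. It was 1.60 in males (3.04-fold, and 1.32 on the log2 scale without D and E) and 1.48 in females (2.79-fold) on the log2 scale. The difference between those effects was 0.12 (SE 0.71, edgeR adjusted p = 0.946), an estimate whose sign depends on the fit.

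Pgr was lower in males than in females at both levels without passing the test. On the log2 scale it differed by -1.35 (SE 0.48, edgeR adjusted p = 0.130) at L6S1 and -1.48 (SE 0.58, adjusted p = 1) at L345. Averaged over the levels it was -1.41 (SE 0.38, adjusted p = 0.665), with a range of -1.65 to -1.20 over 19 alternatives and no call under any of them. The male pools lay below the female mean in 4 of 4 at L6S1 and in 3 of 3 at L345.

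Greb1 (ENSMUSG00000036523, chromosome 12, 16670615 to 16800886) is induced by estrogen in human breast cancer cells, where its product binds the estrogen receptor. It had 1.47, 2.50, 0.76 and 2.33 CPM in male L6S1 A, D, E and F, and 2.45, 2.65 and 1.80 CPM in male L345. Female L6S1 had 6.61, 3.01 and 3.12 CPM and female L345 3.08, 2.69 and 2.71 CPM. Female L6S1 A was the single high library, and the others of both sexes lay between 0.76 and 3.12 CPM. Every male L6S1 pool lay below every female L6S1 pool, and every male L345 pool below every female L345 pool, at L345 by a narrow margin. The level effect was -0.37 in males and 0.59 in females on the log2 scale. At L6S1 the log2 fold change of males over females was -1.26 (SE 0.39, edgeR adjusted p = 0.130), called under 2 of 19 alternatives, and at L345 it was -0.29 (SE 0.43, adjusted p = 1). The difference of the level effect was -0.96 (SE 0.58, adjusted p = 0.441). Greb1 shares 736 exon bases in GENCODE M21 with a gene on the opposite strand for which no counts were given.

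Nr3c1 (ENSMUSG00000024431, chromosome 18, 39410545 to 39491301), the glucocorticoid receptor gene, was the most abundant receptor mRNA among the members per kilobase. Its group means differed less between the levels than between the sexes and were lower in males. It averaged 31.4 ± 9.35 CPM in male L6S1 (SD, n = 4), 35.6 ± 1.03 CPM in male L345, 43.0 ± 13.4 CPM in female L6S1 and 44.8 ± 10.2 CPM in female L345 (n = 3 each). Its level effect on the log2 scale was -0.18 in males, -0.43 without D and E, and -0.06 in females. Males against females averaged over the levels gave -0.39 (SE 0.21, edgeR adjusted p = 0.665). At L6S1 the value was -0.46 (SE 0.28, edgeR adjusted p = 0.303), or -0.71 without D and E (adjusted p = 0.608). At L345 it was -0.33 (SE 0.30). The deposited model of this gene is 259 bases shorter than its exons in GENCODE M21.

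Nr3c2 (ENSMUSG00000031618, chromosome 8, 76899442 to 77245012) encodes the mineralocorticoid receptor, which binds aldosterone and, in neurons, mostly glucocorticoids. It had 5.43, 2.22, 2.11 and 3.28 CPM in male L6S1 A, D, E and F, against 7.07, 5.17 and 5.45 CPM in male L345. Female L6S1 A, B and C had 8.38, 6.08 and 6.28 CPM, against 3.45, 4.51 and 4.68 CPM in female L345. The level difference had opposite signs in the sexes. Every female L6S1 pool lay above every female L345 pool, and 3 of the 4 male L6S1 pools lay below every male L345 pool. The level effect on the log2 scale was -0.85 in males, -0.44 without D and E, and 0.71 in females. The difference of the effects was -1.56 (SE 0.48), the smallest unadjusted p of the 9 genes in that comparison, but the edgeR adjusted p was 0.409. At L6S1 the male values lay below the female ones with no overlap, at -1.08 on the log2 scale (SE 0.33, adjusted p = 0.130, called under 2 of 19 alternatives), or -0.68 without D and E. At L345 the male values lay above with no overlap (0.48, SE 0.35, adjusted p = 1). Nr3c2 shares 247 exon bases with Gm10649 on the opposite strand, which had 22 counts over all libraries.

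**Figure D2:**
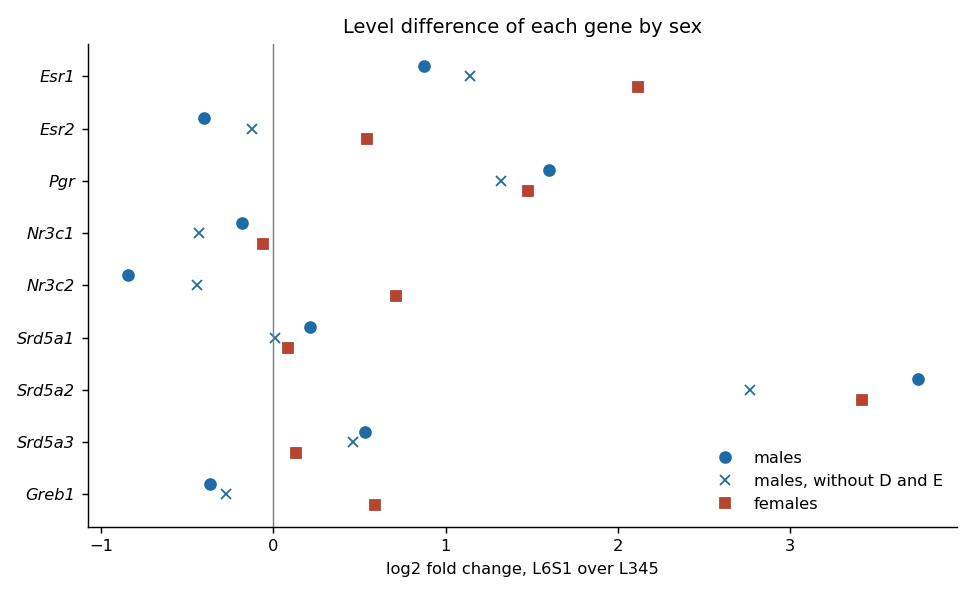
Log2 fold change of L6S1 over L345 (x axis) for each of the 9 genes (y axis), in males (circles), in males without libraries D and E (crosses) and in females (squares). Srd5a2 and Pgr lie right of 0 at like values in both sexes, Esr1 at 0.88 in males and 2.12 in females, and Nr3c2, Esr2 and Greb1 lie left of 0 in males and right of 0 in females.

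Srd5a2 (ENSMUSG00000038541, chromosome 17, 74017706 to 74047916) encodes the reductase best known from prostate and male genital tissue, with a high affinity for testosterone. Male L6S1 A, D, E and F had 75, 232, 182 and 110 counts, against 16, 2 and 9 in male L345 A, B and C. Female L6S1 A, B and C had 27, 16 and 22 counts, against 3, 0 and 3 in female L345. In CPM these were 3.34, 10.9, 10.6 and 4.01 in male L6S1, 1.19, 0.0931 and 0.438 in male L345, 1.19, 0.962 and 1.06 in female L6S1, and 0.159, 0 and 0.123 in female L345. The levels did not overlap within either sex, and every male L6S1 pool lay above every other library of the series. The 0 of female L345 B allows up to 0.160 CPM.

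Summed over libraries, Srd5a2 had 599 counts at L6S1 and 27 at L345 in males, a ratio per read of 12.9. Females had 65 and 6 counts, a ratio of 11.4. These ratios pool the reads of a group and do not show the spread between pools. The fitted level effect was 3.74 in males and 3.42 in females on the log2 scale. Without D and E, the highest libraries, it was 2.76 in males. With the letter within a sex as a block the effect over both sexes was 2.45 in place of 3.58, its male part from the A pair alone. The difference of the level effects was 0.33 (SE 1.48, edgeR adjusted p = 0.927). It lay between -1.94 and 1.32 over 20 alternatives, so that its sign is undetermined. The SE, derived from the F statistic, is approximate for so small a value.

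Srd5a2 had higher values in males without passing the test. At L6S1 it had 7.23 ± 4.12 CPM in males (SD, n = 4) and 1.07 ± 0.115 CPM in females (n = 3), or 2.74 on the log2 scale (SE 0.63, edgeR adjusted p = 0.130). It passed under 3 of 19 alternatives, and without D and E the value was 1.76. At L345 the value was 2.42 (SE 0.93, adjusted p = 1) on counts of 2 to 16 in males and 0 to 3 in females. Averaged over the levels it was 2.58 (SE 0.55, adjusted p = 0.237), again called under 3 of 19 alternatives, with adjusted p between 0.00114 and 0.881. The files count reads over a model of 854 bases, whereas the exons of Srd5a2 in GENCODE M21 span 1605 bases and begin at 74016955, so that 751 bases at the 3′ end were not counted. Of those exon bases, 144 are shared with a gene on the same strand for which no counts were given.

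Srd5a1 (ENSMUSG00000021594, chromosome 13, 69573449 to 69611442), the reductase isoform widespread in brain, had like levels in the 4 groups. It averaged 10.3 ± 2.16 CPM in male L6S1 (SD, n = 4), 8.90 ± 0.566 CPM in male L345, 9.79 ± 0.827 CPM in female L6S1 and 9.23 ± 0.844 CPM in female L345 (n = 3 each). Its level effects were 0.21 in males, 0.012 without D and E, and 0.08 in females. Its log2 fold change of males over females averaged over the levels was 0.01 (SE 0.17, edgeR adjusted p = 0.989). Of its exon bases, 476 are shared with Gm17108 on the same strand, which had 21 counts in all.

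With Srd5a1 level and Srd5a2 not, the mix of the steroid-reducing isoforms varied between the groups. By deposited RPKM, Srd5a2 made up 57.5% to 78.5% of the sum of both in male L6S1, 3.47% to 29.7% in male L345, 24.9% to 30.2% in female L6S1 and 0% to 5.24% in female L345. Within each sex the L6S1 range lay above the L345 range, and male L345 A, at 29.7%, fell inside the female L6S1 range. Because the deposited Srd5a2 model is short, these shares hold for that model and depend on the gene lengths used.

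Srd5a3 (ENSMUSG00000029233, chromosome 5, 76140271 to 76155504) makes dolichol for protein glycosylation by reducing polyprenol, and was the member with the highest level per kilobase. It had 44.6, 23.2, 87.8 and 57.3 CPM in male L6S1 A, D, E and F, and 22.3, 43.6 and 44.3 CPM in male L345 A, B and C. Female L6S1 had 24.3, 44.8 and 43.4 CPM and female L345 15.5, 41.7 and 45.3 CPM. In male L345, female L6S1 and female L345 alike the A library was the lowest and the B and C libraries lay between 41.7 and 45.3 CPM, so that letters differed more than groups. Its level effects were 0.53 in males and 0.13 in females. Males over females averaged over the levels gave 0.31 (SE 0.32, edgeR adjusted p = 0.764), or 0.60 with the letter as a block (adjusted p = 0.0369).

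**Figure D3:**
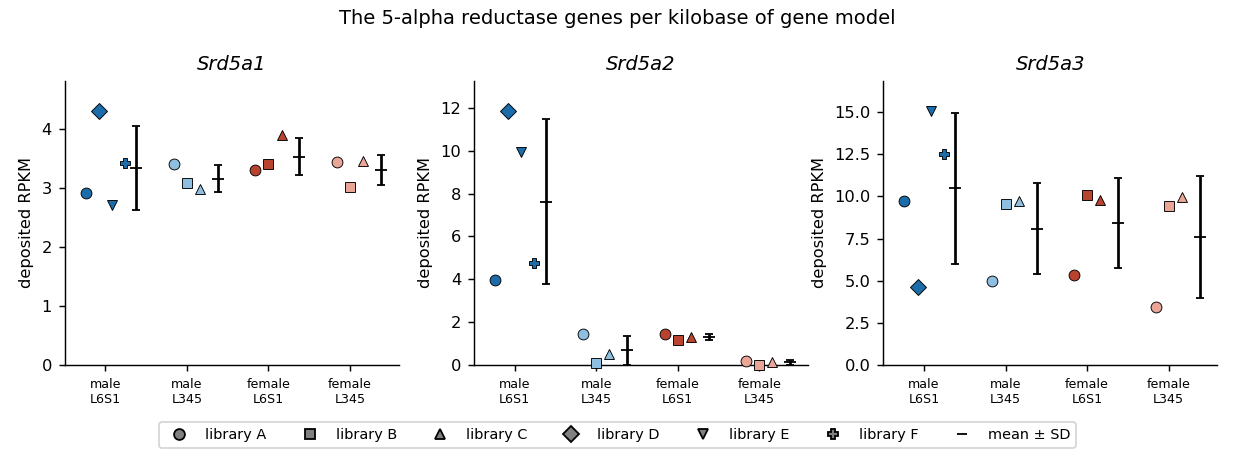
Deposited RPKM (y axis, from 0) of the reductase genes in each library by group (x axis), with points marked by letter and bars for mean ± SD. Srd5a1 stays between 2.72 and 4.30 RPKM, Srd5a2 reaches 3.96 to 11.8 RPKM in male L6S1, and Srd5a3 is low in the A libraries of the other 3 groups.

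Set against all genes, the level difference of the members was uneven. In males 2 of the 9 genes, Pgr and Srd5a2, were higher in every L6S1 pool than in every L345 pool, as were 9.2% of all tested genes. In females 3 of 9, Esr1, Nr3c2 and Srd5a2, met that criterion, against 4.89% of all tested genes. The genes were chosen on this contrast, so nothing is read from these counts. Over all genes, 69 (0.448%) were called between the levels with the sexes averaged.

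None of the 9 genes passed edgeR's test in any of the 4 comparisons that bear on sex. Averaged over the levels, 0.0779% of all tested genes were called between males and females, at L6S1 0.0844%, at L345 0.0325%, and 0% for the difference of the level effect. At an unadjusted p under 0.05 there were 4 of 9 members averaged over the levels (940 of all 15406 genes), 5 at L6S1 (3998), 2 at L345 (133) and 2 for the difference (1805). DESeq2 called Srd5a2 averaged over the levels, Esr1, Greb1, Nr3c2 and Srd5a2 at L6S1, and 0 of 9 in the other 2 comparisons. Of the 26901 genes in its fit, DESeq2 called 24 averaged over the levels, 1281 at L6S1, 8 at L345 and 0 for the difference. Without overlap at L6S1, Srd5a2 was higher in males, against 6.34% of all tested genes, and Esr1, Nr3c2 and Greb1 were lower in males, against 5.54%. At L345 Nr3c2 and Greb1 were separated, against 6.6% of all tested genes in either direction. Counts of calls at L6S1 varied greatly with the fit, from 6 without D and E to 3149 without male L6S1 A.

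**Figure D4:**
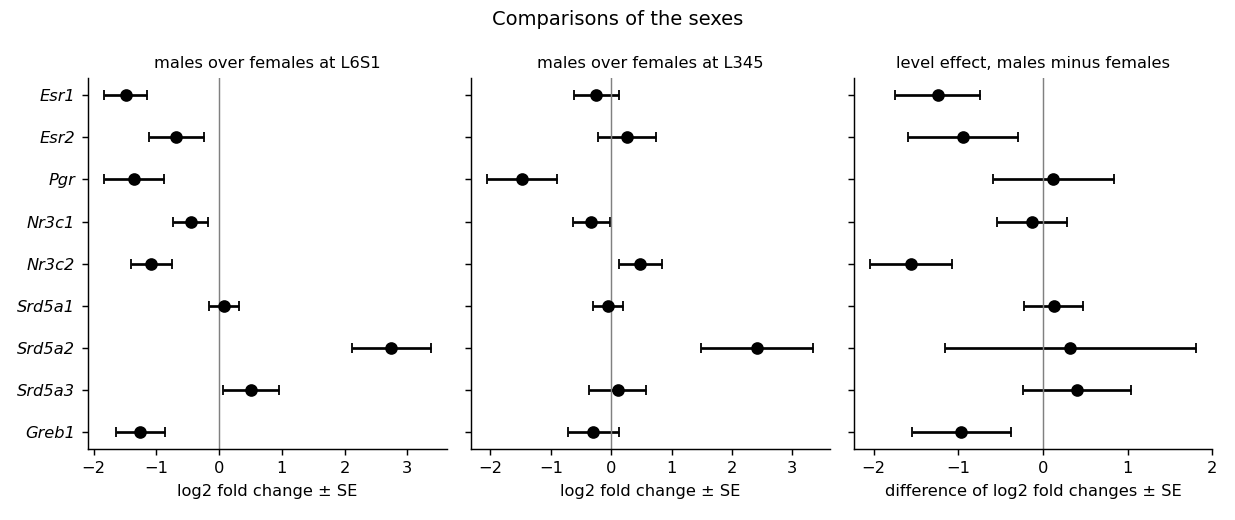
Log2 fold change of males over females at L6S1 and at L345, and the difference of the level effect between the sexes (x axes, with bars of 1 SE), for the 9 genes (y axis). At L6S1 Esr1, Pgr, Nr3c2 and Greb1 lie between -1.49 and -1.08 and Srd5a2 at 2.74, and no gene passed the adjusted test in any panel.

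The rest of the steroid pathway was taken from 6 lists of 116 further genes, of which 89 were tested. None of the 89 passed the edgeR test in any of the 5 comparisons. At an unadjusted p under 0.05 there were 12 of the 89 between the levels and 6 between the sexes averaged over the levels. There were 19 at L6S1, 2 at L345 and 10 for the difference of the level effect. Over all tested genes the shares, in that order, were 8.39%, 6.1%, 26%, 0.863% and 11.7%. DESeq2 called 2, 0, 13, 0 and 0 in the same order, against 187, 24, 1281, 8 and 0 of the 26901 genes in its fit. Those DESeq2 called between the levels were Gal and Rxrg, a retinoid receptor gene. The 18 tested enzymes of steroid synthesis and conversion had a median level effect of 0.21 on the log2 scale, against 0.02 over all tested genes, and 5 of them had an unadjusted p under 0.05, all higher in L6S1, as against 8.39% of all genes in either direction. Without D and E the median of these enzymes was 0.08, against -0.00538 over all genes. The best expressed were Hsd17b12 and Hsd17b10, of the hydroxysteroid dehydrogenase family, at 131.6 and 57.1 RPKM, with level effects of 0.03 (SE 0.16, adjusted p = 0.950) and 0.33 (SE 0.26, adjusted p = 0.680), the second -0.10 without D and E. Among 20 other steroid, thyroid and retinoid hormone receptors the median level effect was 0.05. The membrane progesterone-binding proteins Pgrmc1 and Paqr5 led that list at 169.8 and 73.9 RPKM, far above the 0.147 RPKM of Pgr, with level effects of 0.18 (SE 0.20, adjusted p = 0.762) and -0.16 (SE 0.15, adjusted p = 0.726). Of the 23 tested chaperones and coregulators, whose median was -0.14, the chaperone genes Hsp90ab1 and Hspa8 were highest at 1591 and 251.6 RPKM.

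Genes known to respond to these hormones were examined as lists drawn from other tissues. The 10 tested estrogen-responsive genes had a median level effect of 0.24 and a median of 0.48 for males over females at L6S1, against 0.02 and 0.03 over all tested genes. Without D and E these list medians were 0.24 and 0.38. Gal, the galanin precursor and an estrogen-induced gene in the pituitary, had 1001 ± 554 CPM in male L6S1 (n = 4), 202 ± 33.2 CPM in male L345, 339 ± 30.1 CPM in female L6S1 and 278 ± 101.6 CPM in female L345 (SD, n = 3 each). Its level effect was 1.30 (SE 0.29, adjusted p = 0.0757) and its difference between the sexes 2.02 (SE 0.58, adjusted p = 0.409), with the highest values in male and not in female L6S1. Without D and E these were 0.84 (adjusted p = 0.156) and 1.11 (adjusted p = 0.841). Ctsd, a lysosomal protease induced by estrogen in human breast cancer cells, had a level effect of 0.24 (SE 0.17, adjusted p = 0.657). The 16 tested glucocorticoid-responsive genes had a median level effect of 0.05, or -0.18 without D and E, and the 5 androgen-responsive ones -0.13, or -0.047 without D and E. Tsc22d3, a standard glucocorticoid target, had -0.17 (SE 0.16, adjusted p = 0.724), the metallothionein Mt1 0.23 (SE 0.36, adjusted p = 0.823, and -0.42 without D and E), and the androgen-responsive Ndrg1 and Slc45a3 -0.35 (SE 0.17, adjusted p = 0.593) and 0.07 (SE 0.31, adjusted p = 0.943).

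**Figure D5:**
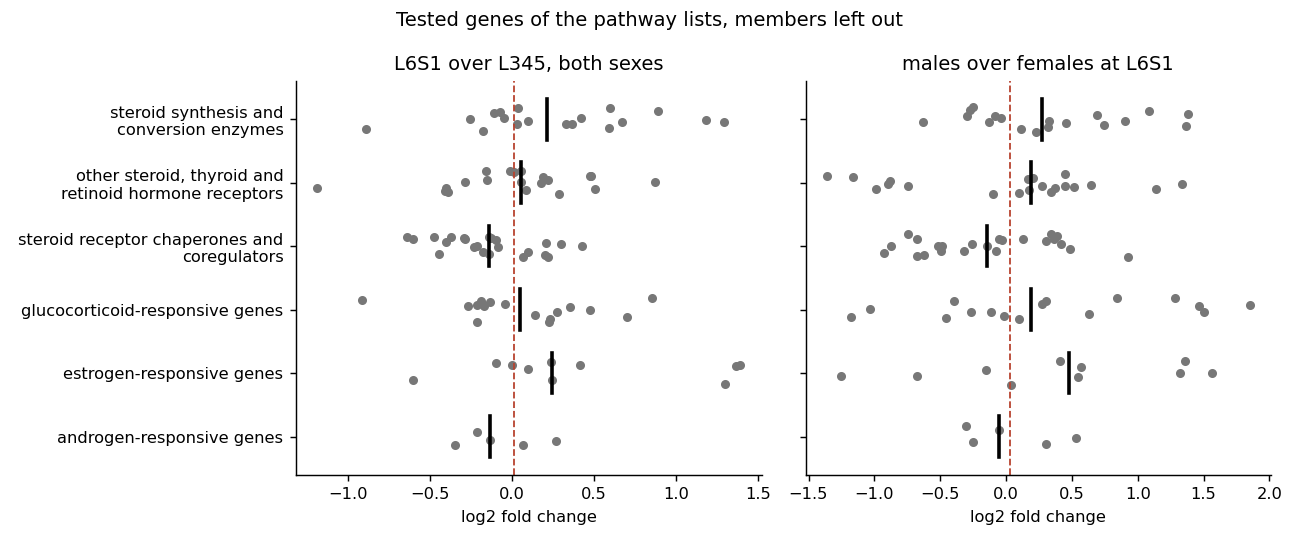
Log2 fold changes (x axes) of the tested genes of the 6 pathway lists (y axis), for L6S1 over L345 with the sexes averaged and for males over females at L6S1. Points are genes, with vertical scatter for display only, black bars are list medians and the dashed line is the median of all 15406 tested genes. No point passed the adjusted test, and the estrogen-responsive median lies at 0.24 and 0.48.

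The genes whose log2 CPM followed Esr1 most closely over the 13 libraries were Negr1 (Pearson r = 0.925), Greb1l (0.924), Slc22a3 (0.905), Pcdh17 (0.898) and Scube1 (0.892). All 5 were highest in female L6S1, as Negr1 with 21.9 ± 2.22 CPM in male L6S1, 9.11 ± 1.77 CPM in male L345, 54.0 ± 29.7 CPM in female L6S1 and 10.7 ± 5.40 CPM in female L345. Greb1l, a paralog of Greb1, averaged 3.78 CPM in male L6S1, 2.07 in male L345, 6.87 in female L6S1 and 2.80 in female L345, and followed Esr1 more closely than Greb1 itself, whose r with Esr1 was 0.544. Srd5a2 was followed by Penk (0.949), Pnlip (0.938), Nrsn2 (0.931), Cidea (0.907) and Ccn4 (0.897). Penk, the enkephalin precursor, had 271 ± 213 CPM in male L6S1, 22.1 ± 9.85 CPM in male L345, 46.2 ± 19.9 CPM in female L6S1 and 15.1 ± 2.56 CPM in female L345. Without male L6S1 D and E its r with Srd5a2 was 0.928 over 11 libraries.

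Pgr was followed by Fgd5 (r = 0.914), Cfap54 (0.888), Lrrc6 (0.887), Olfr558 (0.876) and Rgs11 (0.860), and Greb1 by Slc15a2 (0.908), Zfp618 (0.886), Rab10os (0.872), Osbpl11 (0.871) and Tenm2 (0.868). Without D and E the values for Tenm2 and Osbpl11 were 0.721 and 0.744, whereas Fgd5 stood at 0.933. By Spearman rank correlation over the 13 libraries the Greb1 values were 0.632 for Slc15a2, 0.841 for Zfp618, 0.764 for Rab10os, 0.588 for Osbpl11 and 0.797 for Tenm2. Some of the genes named were near absent in male L345. There Cfap54, Lrrc6 and Olfr558, and Slc22a3 and Scube1 named for Esr1, averaged 0.0155 to 0.113 CPM. These means lie under the floors of 3 counts, 0.142 CPM or more in that group. Among the members the closest pairs were Esr2 with Nr3c2 (0.704) and Esr1 with Pgr (0.674), and without D and E these were 0.589 and 0.743. All these libraries share the level and sex differences described above, so the correlations describe patterns over pools and carry no test.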

How the data were processed

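Cells were sorted for EGFP from dissociated ganglia and libraries made from 10 ng of RNA with a SMARTer Ultra Low kit, per the labels' protocols. The submitters' processing notes name Subread, featureCounts 1.4.5 and GRCm38.p2 for every library, and STAR 2.0.4b, Salmon and mm10 for the female ones. No source used here gives strand use or the handling of multimapping reads, so a gene and an overlapping gene cannot be separated.

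The authors deposited, per library and gene, raw counts, CPM and RPKM. The deposited CPM is the count scaled to the library's total and the deposited RPKM that value per kilobase of the file's gene length (recomputed, largest relative difference 5.21e-14). Counts entered all tests. CPM printed here uses the library total times its TMM factor (0.925 and 0.796 in male L6S1 D and E, 1.01 to 1.05 elsewhere), and RPKM served to compare genes. Floors of 3 counts cover counting error only, as amplified reads are not independent molecules. GENCODE M21 on GRCm38 gave symbols, exons and coordinates, and matched 40254 of 41388 identifiers.

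Genes passing filterByExpr were fitted with edgeR 4.0.16 in R 4.3.3 (TMM, robust quasi-likelihood F-test, 1 mean per group, 13 libraries, 9 residual degrees of freedom), adjusted by Benjamini-Hochberg over all 15406 and called at an adjusted p under 0.05. The SE was computed as the size of the log2 fold change divided by the root of its F statistic, which is approximate for values near 0. Alternatives were RLE factors, library totals alone, DESeq2 1.42.0, no filter, each library left out, male L6S1 D and E left out, and the library letter as a block, over all libraries or within a sex. The code was tested on simulated counts. Same-lettered libraries deviated from their group means together between males and females at L345 (r = 0.505, 0.221 and 0.349 for A, B and C) and at L6S1 (A alone, 0.357), and between the levels in females (r = 0.520, 0.203 and 0.488). The male levels share A alone, at r = 0.101. Blocked values stand beside averaged results that they change. The block within a sex leaves 2 residual degrees of freedom and takes the male level effect from the A pair alone. The members, the gene lists and the rules were chosen with earlier results of these data known. Named were the members, Ret, list genes called in any comparison, the 2 list genes with the highest median RPKM, and the 5 genes without predicted-gene names closest to Esr1, Pgr, Greb1 and Srd5a2 by Pearson r of log2 CPM (prior count 2). One list gene is not reported here.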

Additional observations from a re-analysis of the deposited data

Results flagged for a closer look

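Of the 9 genes, each examined for a sample far from the rest among the 4 male L6S1 libraries, Pgr stood out in male L6S1 E, with 2.28 CPM against 1.13 to 1.24 CPM in A, D and F. The gap to the nearest library was 0.906 of the whole range, above Dixon's 95% critical value of 0.829, which chance exceeds in about 1 of 20 groups. That gap was taken on CPM scaled by the TMM factor, which was 0.796 in E. The counts were 26, 24, 39 and 34 in A, D, E and F. In deposited CPM, without that factor, they stood at 1.17, 1.05, 1.82 and 1.26, where the gap is a smaller share of the range. The flag thus depends on the scaling of E.

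Nr3c2 moved in opposite directions in the sexes, since every male L6S1 pool lay below the male L345 mean and every female L6S1 pool above the female L345 mean. The difference of the level effect, males minus females, was -1.56 on the log2 scale and did not pass the edgeR test (adjusted p = 0.409), and without male L6S1 D and E it was -1.15.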

How the results depend on the processing

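With DESeq2 the calls over all genes were 24 for males over females with the levels averaged, 1281 at L6S1, 8 at L345 and 187 between the levels (164 higher and 23 lower), against 12, 13, 5 and 69 in edgeR. With no low-count filter they were 19, 197, 8 and 144, and 1 for the difference of the level effect, where edgeR called 0 with the filter (1805 genes at an unadjusted p under 0.05) and DESeq2 0. With the replicate block by letter they were 369, 669 and 8, and 31 for the difference, and with the replicate block within a sex 118 between the levels. Without male L6S1 D and E 7 were called averaged over the levels and 6 at L6S1. Leaving out 1 library gave 10 to 14, 9 to 3149 (the highest without male L6S1 A, the next 15), 5, 0, and 28 to 129 between the levels (28 without female L345 B or male L345 C, 129 without male L6S1 A). At L6S1 library totals alone moved the median of all genes from 0.03 to -0.11 on the log2 scale. The cause of these changes was not tested.

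No member passed in the fit reported. Those that passed elsewhere at L6S1 were Esr1 and Greb1 (DESeq2 and the block), Nr3c2 (DESeq2), Srd5a2 (DESeq2 and no filter), Esr1 (no filter), Srd5a3 (1.03 with the block, adjusted p = 0.0223), and Esr1, Nr3c2 and Srd5a2 without male L6S1 A. The letter is shared by A alone at L6S1, so the block there rests on 1 pair. The male levels also share A alone, so the male level effect with the block within a sex rests on 1 pair too.

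The sign of small values turned. With library totals alone Srd5a1 stood at -0.0736 averaged and -0.0816 at L6S1, and the differences of the level effect were -0.0382 for Pgr and -0.0161 for Srd5a1. With the block Srd5a1 stood at -0.16 and -0.27, and the differences were -0.75 for Pgr, -0.21 for Srd5a1 and -1.38 for Srd5a2, and within a sex -0.28 for Srd5a1 and -1.94 for Srd5a2. Without D and E Srd5a1 stood at -0.0965 and -0.13, and the differences were -0.16 for Pgr, -0.0699 for Srd5a1 and -0.65 for Srd5a2. With 1 library left out the averaged values ran from -0.34 to 0.0337 for Esr2 and -0.0861 to 0.0551 for Srd5a1, Srd5a1 at L6S1 from -0.11 to 0.16, Srd5a3 at L345 from -0.25 to 0.36, and the differences from -0.32 to 0.55 for Pgr, -0.33 to 0.15 for Nr3c1, -0.0576 to 0.22 for Srd5a1 and -0.23 to 1.32 for Srd5a2.

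Pools of 3 or 4 per group, confounding of sex with processing notes, and counts of 0 to 41 for Esr2 and for Srd5a2 outside male L6S1 limit the precision of these values.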
